A study of Mus musculus with 6 samples.

Results

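The WNT genes described here are 10 genes of the pathway chosen by name from the 27179 Entrez gene identifiers of a table of lens RNA. Sfrp1, Sfrp2, Dkk3 and Wif1 encode secreted proteins of families that bind or inhibit WNT signals. Wls encodes the carrier that takes WNT ligands to the cell surface. Axin2, Lgr5 and Znrf3 are targets and feedback regulators, and Lef1 and Tcf7l2 encode transcription factors. All 10 symbols were matched, and all 10 passed the filter on low values. The lenses came from mouse pups of strain B6/FVB on postnatal day 1. 3 libraries were labelled Gclc KO (KO 1 to 3) and 3 Gclc CON (CON 1 to 3). Gclc encodes the catalytic subunit of the enzyme that makes the first step of glutathione synthesis, and the study's title links this synthesis to eye development and PAX6. The allele, any Cre driver, the genotype of the controls and the number of animals per library are not given in the sources used here, so the spread behind each p-value is that between these libraries and may be technical.

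WNT proteins are secreted ligands that bind Frizzled receptors together with LRP co-receptors. In the canonical branch this stops the destruction complex, in which AXIN2 can serve as a scaffold, from removing beta-catenin, which then works in the nucleus with LEF1 and TCF family proteins. R-spondins, bound by LGR5 and its relatives, protect Frizzled receptors from the ubiquitin ligases ZNRF3 and RNF43. In the lens, WNT signalling is known for its part in the epithelium, and the Frizzled and planar polarity branch for the ordering of fibre cells.

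The promoter letters of 6 of the 10 genes were matched in RefSeq (GRCm38.p6), with 10 annotated starts. None were matched for Sfrp1, Dkk3, Lgr5 or Znrf3. The search below therefore does not cover Sfrp1 and Lgr5, the genes that pass the test further on. The TCF and LEF proteins bind CTTTG followed by A or T at each of 2 positions, so both strands of the 250 bases upstream of each start were searched for CTTTGAA first, then CTTTGAT, then CTTTGTA and last CTTTGTT. Of the 10 windows, 2 held a word, one at an internal start of Lef1 and one at an internal start of Tcf7l2, against 14.8% of 32851 windows of the same length over all genes. The 2 most upstream windows of Lef1 share most of their bases, so the 10 are not separate. The windows shown for Lef1 and Tcf7l2, which encode proteins that read these letters, are those that held a word. The other windows of both genes, among them the most upstream ones, held none and are not shown. Axin2 is shown because it is the best known feedback target. Capitals mark the word, and a word in these letters is not a measured site.
Lef1, chr3:131156044-131156293, + strand: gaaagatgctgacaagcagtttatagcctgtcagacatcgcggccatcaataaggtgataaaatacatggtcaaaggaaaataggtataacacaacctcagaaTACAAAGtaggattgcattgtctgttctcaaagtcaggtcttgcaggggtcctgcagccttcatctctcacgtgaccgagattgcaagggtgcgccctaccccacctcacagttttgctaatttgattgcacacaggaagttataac
Tcf7l2, chr19:55895071-55895320, + strand: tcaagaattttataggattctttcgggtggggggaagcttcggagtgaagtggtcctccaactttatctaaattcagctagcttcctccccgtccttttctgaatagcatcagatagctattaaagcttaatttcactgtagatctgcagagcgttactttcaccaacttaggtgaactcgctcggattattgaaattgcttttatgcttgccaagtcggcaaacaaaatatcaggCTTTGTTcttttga
Axin2, chr11:108920099-108920348, + strand: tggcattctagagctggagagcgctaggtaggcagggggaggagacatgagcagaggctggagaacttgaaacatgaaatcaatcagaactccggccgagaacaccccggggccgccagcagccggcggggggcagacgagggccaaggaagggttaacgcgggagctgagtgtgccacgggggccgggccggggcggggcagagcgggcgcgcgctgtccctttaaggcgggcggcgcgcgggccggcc
The Lef1 word begins 147 bases upstream of its start, and on the printed strand it reads TACAAAG, the reverse complement of CTTTGTA. In Tcf7l2 the word begins 14 bases upstream. The Axin2 window held none of the words in these letters, and it was rich in G and C (69.2%, against a median of 52.4% over all windows). Reads were counted per gene, so the values below do not separate starts.

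The libraries held 45842484 to 61219009 reads in genes in KO and 20361430 to 43384443 in CON, with CON 2 the shallowest. Values are given as normalised reads, which are reads divided by the size factor of the library, and those of single libraries are listed in the order 1, 2, 3. Gclc itself had 17.9, 72.1 and 58.1 normalised reads in the KO libraries against 178.4, 283.2 and 172.6 in the CON libraries. Its difference on the variance-stabilised log2 scale was -1.01 (SE 0.28, limma adjusted p = 0.0387), and the call was lost in 10 of 14 alternative fits, among them those without CON 2, KO 1, KO 2 or KO 3 (limma adjusted p up to 0.13). Of 11468 genes tested over the whole table with limma, KO libraries had 793 called higher (6.91%) and 504 called lower (4.39%), taking adjusted p-values under 0.05 as calls. The share of higher genes among the calls was 61.1%, and it was 47.3% with equal library medians, 47.1% with voom on recovered reads and 97.5% with scaling to library totals, where the median difference of all genes stood at 0.86. Among the alternative fits, a covariate for the style of the library names, which KO 2 and KO 3 share, leaves KO 1 as the only KO library compared with CON. That fit assumes that KO 1 varies like the others, and it gives a comparison of 1 library rather than of the group. Summed over the list, markers of lens fibre cells were abundant in all 6 libraries, although all 10 were called lower in KO. The lens epithelium gene Foxe3 was close to 0 in all KO libraries and in CON 3, with 3.46, 4.21 and 0 normalised reads in the KO libraries against 514.1, 81.8 and 2.95 in the CON libraries. Foxe3 was below the filter and not tested, and its CON values spread widely. Of the 5 lens epithelium markers that were tested, 3 fell, 1 (Aqp1) rose and 1 did not pass.

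Of the 10 genes, Sfrp1 fell and Lgr5 rose in KO lenses. The other 8 did not pass the test. 1 higher and 1 lower of 10 is close to the shares over all genes, and the median difference of the 10 was -0.04 against 0.03 over all tested genes. The count thus says nothing particular about these genes as a set. All KO libraries lay below all CON libraries for Sfrp1 and Axin2, as they did for 14.1% of tested genes, and above them for Lgr5, as for 16.9% of tested genes.

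**Figure D1:**
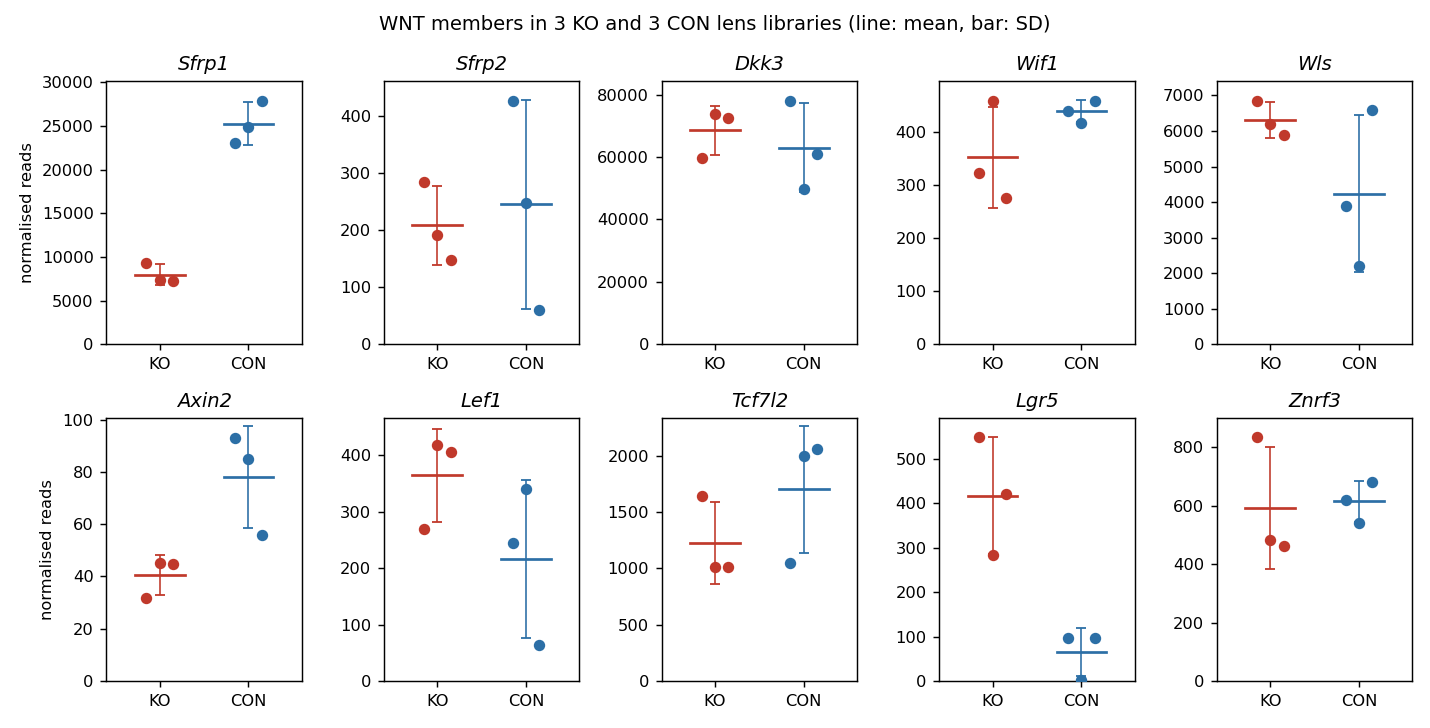
Normalised reads (vertical axes, from 0) of the 10 WNT genes in 3 KO libraries (left in each panel) and 3 CON libraries (right), with 1 point per library, a line at the mean and a bar of 1 SD. Sfrp1 lies at 7241 to 9336 in KO and 23062 to 27933 in CON, and Lgr5 at 283.7 to 549.4 in KO and 3.15 to 97.3 in CON.

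The secreted inhibitors differed widely in level. Sfrp1, a secreted protein with a Frizzled-like domain that binds WNT ligands, had 9336, 7381 and 7241 normalised reads in the KO libraries, against 23062, 24850 and 27933 in the CON libraries. Every KO library lay below every CON library, and each group was tight (7986 ± 1172 in KO and 25282 ± 2464 in CON, SD, n = 3 each). The KO mean was 0.316 times the CON mean, and the log2 difference was -1.65 (SE 0.20, 95% interval -2.08 to -1.22, limma adjusted p = 0.000556). Sfrp1 stood 62nd of 11468 genes by p. The fall was called in all 15 alternative fits, between -1.77 and -0.83, and in the one with the name style (-1.42) it rests on KO 1 alone. The value of -0.83 came from scaling to library totals. Its ratio per length to Dkk3 in the same library, which no scaling between libraries can alter, was 0.0769 to 0.12 in KO and 0.227 to 0.384 in CON. This ratio was chosen after the values were seen.

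Its close relative Sfrp2 was far less abundant and gave no call. Sfrp2 had 285.1, 191.8 and 148 normalised reads in the KO libraries, against 427.5, 248.6 and 60.5 in the CON libraries. The KO values lay within the range of the CON values, which spread widely (coefficient of variation 74.8%). The log2 difference was -0.02 (95% interval -0.83 to 0.80, limma adjusted p = 0.984), and its sign turned in 8 of 14 alternative fits. Sfrp1 exceeded Sfrp2 per length by 16.1 to 24.1 times in KO libraries and by 26.6 to 227 times in CON libraries. Whether the differences of Sfrp1 and Sfrp2 themselves differ was not tested.

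Dkk3 was the most abundant of the 10 genes. It encodes the divergent member of the Dickkopf family, whose other members are known to block the LRP co-receptors. Dkk3 had 59595, 73754 and 72386 normalised reads in the KO libraries, against 78124, 49778 and 61094 in the CON libraries. The groups overlapped, and the 95% interval of the log2 difference of 0.14 ran from -0.36 to 0.64 (limma adjusted p = 0.751). With scaling to library totals its difference was called (0.95, limma adjusted p = 0.0289), close to the median of all genes under that scaling. Wif1, which encodes WNT inhibitory factor 1, had 323.1, 459.3 and 275.9 normalised reads in the KO libraries, against 440.2, 418.6 and 460.2 in the CON libraries. Its KO 2 value lay among the CON values, with KO 1 and KO 3 below them (log2 difference -0.25, 95% interval -0.78 to 0.29, limma adjusted p = 0.577).

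Wls encodes the carrier without which WNT ligands stay in the secretory pathway. It had 6858, 6209 and 5876 normalised reads in the KO libraries, against 3903, 2209 and 6590.2 in the CON libraries. The KO libraries were close together and CON 3 lay among them, with CON 1 and CON 2 lower. The log2 difference was 0.68 (95% interval -0.01 to 1.37, limma adjusted p = 0.193). Single CON libraries moved the value: it was 0.30 without CON 2 (limma adjusted p = 0.533) and 1.05, a call, without CON 3 (limma adjusted p = 0.0301). Scaling to library totals also gave a call (1.43, limma adjusted p = 0.0129).

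**Figure D2:**
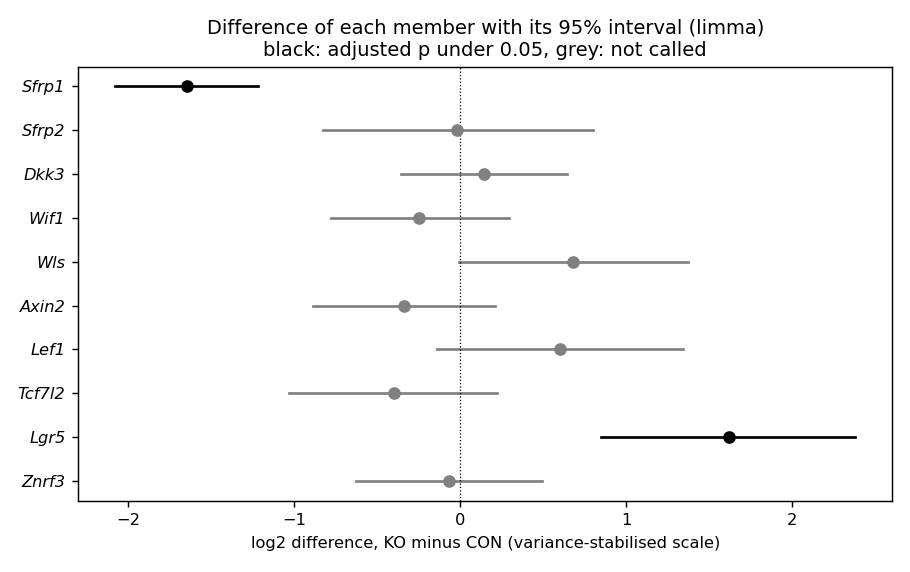
Log2 difference of each gene, KO minus CON, on the variance-stabilised scale (horizontal axis), with its 95% interval from limma, in black where the adjusted p was under 0.05 and in grey otherwise. Sfrp1 at -1.65 and Lgr5 at 1.62 are the genes in black, and the intervals of the other 8 include 0.

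Among the targets and feedback regulators, Lgr5 stood apart. This receptor for R-spondins, best known as a marker of intestinal stem cells, had 549.4, 283.7 and 420.7 normalised reads in the KO libraries, against 97.1, 3.15 and 97.3 in the CON libraries. The lowest KO library exceeded the highest CON library by a wide margin. CON 2, the shallowest library, held 1 read of this gene, while CON 1 held 92 and CON 3 held 66. The KO mean was 6.35 times the CON mean (418 ± 132.9 against 65.9 ± 54.3, SD, n = 3 each), and the log2 difference, which the transformation shrinks for genes with few reads, was 1.62 (SE 0.35, limma adjusted p = 0.0129). Without CON 2 the difference was 1.23 and the call held (limma adjusted p = 0.0361). The call was lost without KO 1 (1.45, limma adjusted p = 0.0562), with voom on recovered reads (2.81, limma adjusted p = 0.138), with log2 of normalised reads plus 1 (3.56, limma adjusted p = 0.0765) and with the name style as a covariate, where KO 1 alone stands for KO (1.94, limma adjusted p = 0.0874). The direction was the same in all 14 alternative fits that tested it.

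Axin2, which is induced by beta-catenin and then limits it, had few reads. It had 31.7, 45.1 and 44.9 normalised reads in the KO libraries, against 92.9, 85 and 56 in the CON libraries. The groups did not overlap, and the KO mean was 0.52 times the CON mean. From 27 to 88 reads per library stood behind these values, and on the log2 scale, where low values are drawn together, the difference of -0.34 did not pass (95% interval -0.89 to 0.21, limma adjusted p = 0.428). It stayed negative and uncalled in all 14 alternative fits that tested it. Znrf3, the ligase that removes Frizzled receptors, had 834.5, 483.3 and 460.4 normalised reads in the KO libraries, against 620.7, 541.3 and 681.4 in the CON libraries. Its KO libraries lay on both sides of the CON libraries (log2 difference -0.07, 95% interval -0.63 to 0.49, limma adjusted p = 0.897).

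The transcription factor genes gave no call. Lef1, whose protein has little activity without a partner such as beta-catenin, had 270.1, 419 and 405.9 normalised reads in the KO libraries, against 243.8, 339.9 and 63.4 in the CON libraries. CON 3 was far below the other 5 libraries, and KO 1 lay between CON 1 and CON 2 (log2 difference 0.60, 95% interval -0.14 to 1.34, limma adjusted p = 0.295). Without CON 3 the difference was 0.22 (limma adjusted p = 0.678). Tcf7l2 had 1645, 1012 and 1013 normalised reads in the KO libraries, against 1049, 1998 and 2055 in the CON libraries. KO 1 and CON 1 each lay apart from their groups, towards the other group (log2 difference -0.40, 95% interval -1.03 to 0.22, limma adjusted p = 0.406). With scaling to library totals, Lef1 was called higher (2.04, limma adjusted p = 0.0442).

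In length-adjusted level, normalised reads per kilobase of annotated exon, the order was similar in both groups. Dkk3 came first with 20416 ± 2325 in KO and 18755 ± 4248 in CON (SD, n = 3 each), which placed it 30th of 11040 tested genes with a length in KO and 58th in CON. Sfrp1 came second with 1827 ± 268 in KO and 5783 ± 563.6 in CON, placing 657th in KO and 247th in CON. Next came Wls, with 718.2 ± 56.8 in KO and 481.6 ± 251.3 in CON. The ranges of these 3 genes overlapped neither each other nor those of the genes below. Wif1, Tcf7l2, Sfrp2 and Znrf3 followed with means from 75.1 to 145.3 in KO and from 77.9 to 193.8 in CON, and neighbours among them overlapped. Lef1 overlapped Lgr5 in KO (means of 41.5 and 40.7) and Axin2 in CON (24.5 and 14.2). The last place was held by Axin2 in KO, at 7.37 ± 1.40, and by Lgr5 in CON, at 6.42 ± 5.29.

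**Figure D3:**
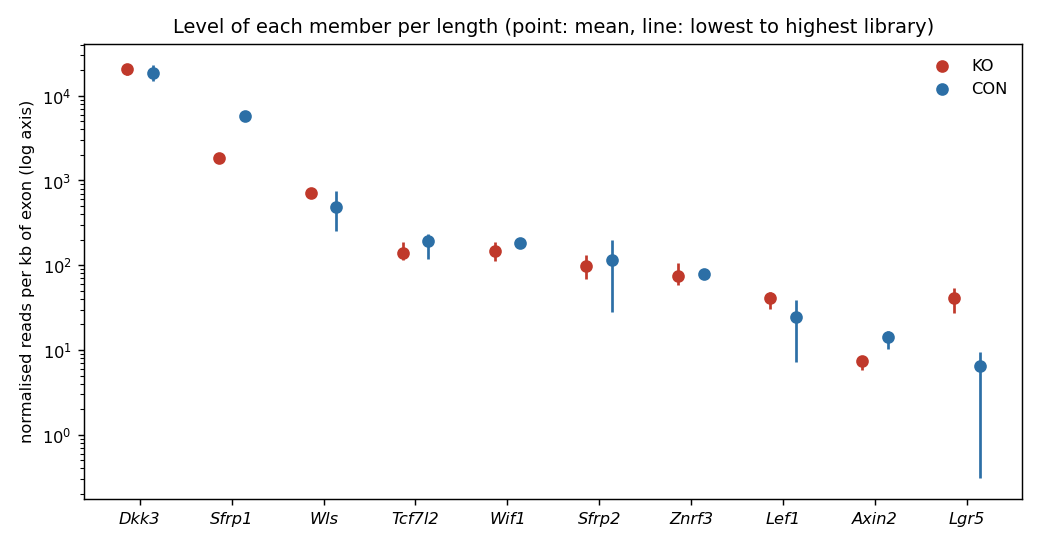
Normalised reads per kilobase of exon (vertical log axis) of the 10 genes, in the order of their CON means, for KO (left of each pair) and CON (right), with a point at the mean and a line from the lowest to the highest of 3 libraries. Sfrp1 and Lgr5 show the widest gaps between groups, and the CON line of Lgr5 reaches down to 0.307 in CON 2.

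The rest of the pathway was followed in 103 further genes listed by role, of which 65 were tested. Of these, 5 rose and 3 fell, 57 did not pass and the median difference was 0.11. These counts are close to the 6.91% and 4.39% over all genes. They moved with single libraries: the number that rose was 8 without CON 1 and 3 without KO 2, while 5 fell when CON 3 was left out and 1 when KO 1, KO 2 or CON 2 was. Of the other secreted inhibitors, Frzb (0.09), Dkk1 (0.70) and Sostdc1 (-0.32) were tested on the log2 scale and none passed. Sfrp4, Sfrp5, Dkk2, Dkk4, Dkkl1, Sost, Cer1 and Draxin were below the filter on low values.

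**Figure D4:**
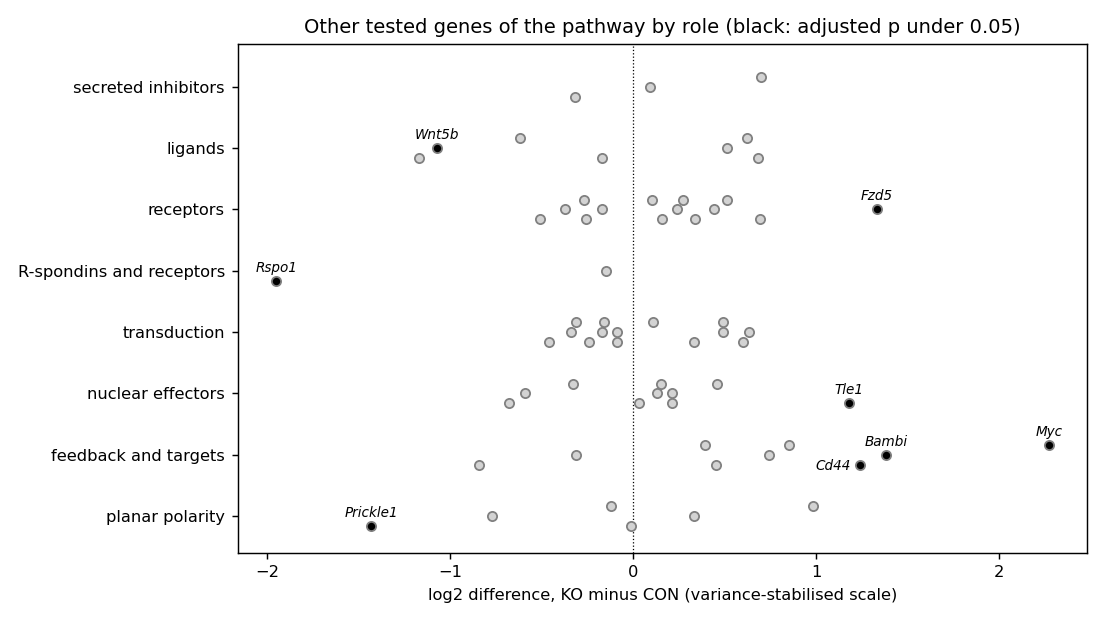
Log2 difference, KO minus CON, of the 65 other tested genes of the pathway (horizontal axis), grouped by role down the page, with called genes in black and named. Rspo1 at -1.95 and Myc at 2.27 lie farthest from 0, and most genes lie within 1 unit of it.

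The tested ligand of LGR5 and its relatives moved opposite to Lgr5. Rspo1, the only R-spondin gene tested, had 626, 199.6 and 404.3 normalised reads in the KO libraries, against 1593, 2017 and 2227 in the CON libraries. No KO library reached the lowest CON library (log2 difference -1.95, SE 0.30, limma adjusted p = 0.00213). The call was lost in 1 of 15 alternative fits, the one with the name style, in which KO 1 alone is set against CON (-1.40, limma adjusted p = 0.0927). Lgr4, the relative of Lgr5 with the same ligands, averaged 1454.9 ± 408.1 in KO and 1624.1 ± 353.4 in CON (log2 difference -0.15, limma adjusted p = 0.75). The length-adjusted level of Lgr5 was 0.115 to 0.225 times that of Lgr4 in KO libraries and 0.000938 to 0.0451 times in CON libraries. The relative Lgr6 and the ligand genes Rspo2, Rspo3 and Rspo4 were below the filter. The ratios to Lgr4, like that of Sfrp1 to Dkk3, were chosen after the values were seen.

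1 of 7 tested ligand and ligand-processing genes fell. Wnt5b, a ligand best known for signalling without beta-catenin, had 54.7, 110.0 and 132.1 normalised reads in the KO libraries, against 441.2, 443.7 and 200.6 in the CON libraries (log2 difference -1.07, limma adjusted p = 0.0397). The groups did not overlap, but the call was lost in 10 of 14 alternative fits, among them those without KO 1, KO 2, KO 3, CON 1 or CON 2 (limma adjusted p up to 0.199). Of 14 tested receptor genes, Fzd5 rose, with 315.0, 315.6 and 288.1 normalised reads in the KO libraries, against 46.4, 53.5 and 50.1 in the CON libraries. Fzd5 encodes a Frizzled receptor known for its role in the developing retina and optic vesicle. Its replicates were close together in both groups (log2 difference 1.33, SE 0.24, limma adjusted p = 0.00585). The Fzd5 call was lost in 1 of 14 alternative fits, again the one that rests on KO 1 alone (limma adjusted p = 0.0957).

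None of 14 tested genes of the destruction complex and transduction passed. Ctnnb1, which encodes beta-catenin, averaged 3146 ± 663.5 in KO and 3983 ± 361.7 in CON (log2 difference -0.34, 95% interval -0.80 to 0.12, limma adjusted p = 0.337). Of 10 nuclear effectors, Tle1, which encodes a corepressor of the Groucho family, rose (474.6, 361.3 and 316.6 normalised reads in the KO libraries, against 99.2, 85.0 and 97.3 in the CON libraries, limma adjusted p = 0.0115). This call was lost in 4 of 14 alternative fits, including those without KO 1 or KO 2 (limma adjusted p up to 0.0591 in these). Of the tested relatives of Tle1, Tle3 (-0.68) and Tle5 (-0.59) differed the other way, Tle4 (0.15) did not, and none passed. Of 6 planar polarity genes, Prickle1 fell, with 312.7, 546.5 and 805.0 normalised reads in the KO libraries, against 2950.5, 1545 and 1039.9 in the CON libraries (log2 difference -1.43, limma adjusted p = 0.0253). It lost its call in 6 of 15 alternative fits, including those without KO 1, KO 2 or CON 2 (limma adjusted p up to 0.094 in these). Its relative Prickle3 differed the other way and did not pass (log2 difference 0.98, limma adjusted p = 0.0522). Prickle3, Tle3, Tle4 and Tle5 were named after their values were seen.

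Of 9 tested feedback and target genes outside the 10, 3 rose and none fell, with a median difference of 0.74. Over all tested genes, 6.91% were called higher and 4.39% lower, and the 9 were not tested as a set. The 3 that rose were Myc, Cd44 and Bambi, which also respond to other pathways, among them growth factor, inflammatory and TGF-beta signals. Myc had 773.5, 658.9 and 552.3 normalised reads in the KO libraries, against 78.1, 103.9 and 0 in the CON libraries (log2 difference 2.27, limma adjusted p = 0.00313). Its CON values alone averaged below the filter on low values, so Myc was tested only because of its KO values. The 0 of CON 3 allows up to 4.42 normalised reads, taking 3 reads as the limit of counting error, and the Myc call was lost with voom on recovered reads (limma adjusted p = 0.0533) and with log2 of normalised reads plus 1 (limma adjusted p = 0.0656). Cd44, a hyaluronan receptor, averaged 3087 ± 1362 in KO and 1139 ± 105.9 in CON (log2 difference 1.24, limma adjusted p = 0.0133). KO 1 had 4659 normalised reads of Cd44, against 2339 in KO 2 and 2263 in KO 3. The Cd44 call held in all 15 alternative fits, 1 of them on KO 1 alone. It was near the threshold without KO 1 (0.92, limma adjusted p = 0.0428) and without CON 2 (1.23, limma adjusted p = 0.0498). Bambi, a membrane pseudoreceptor for TGF-beta family ligands, averaged 823.5 ± 268 in KO and 239.8 ± 138.7 in CON (log2 difference 1.38, limma adjusted p = 0.0232). The Bambi call was lost in 4 of 14 alternative fits, including those without KO 2 (limma adjusted p = 0.116) or CON 3 (limma adjusted p = 0.0507). The feedback inhibitor genes did not pass. Nkd1 averaged 67.6 ± 38.5 in KO and 217.5 ± 97.3 in CON (log2 difference -0.84, limma adjusted p = 0.106), Nkd2 811.5 ± 314.2 in KO and 528.8 ± 117.3 in CON, and Notum 214.3 ± 88.1 in KO and 131.8 ± 49.4 in CON. These 3 genes and Ctnnb1 were named after their values were seen.

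Markers of several cell types moved with the groups, and in whole lens RNA fewer cells of a type and less RNA per cell cannot be told apart. The 2 markers named for each type are those with the highest mean over all 6 libraries, and within one group the order can differ. All 10 lens fibre markers were called lower in KO, as were 4.39% of all tested genes. Their summed levels were 323820 to 455037 normalised reads in KO and 853144 to 1118574 in CON, with Bfsp2 and Lim2. Of 6 lens epithelium markers, 3 fell, 1 rose and Foxe3 was not tested (summed 3363 to 3787 in KO and 3424 to 7438 in CON, with Aqp1 and Fgfr3). The marker that rose was Aqp1, with 2273, 2239 and 1877 normalised reads in the KO libraries, against 974.3, 648.3 and 1444 in the CON libraries. Aqp1 thus made up much of the KO sums, while Fgfr3 fell (log2 difference -1.27). Beside the rise of Lgr5 and Fzd5, 5 of 9 markers of retinal progenitors and ciliary margin rose and none fell (summed 26176 to 27693 in KO and 6978 to 10987 in CON, with Wfdc1 and Mab21l2). Beside the rise of Cd44, which macrophages also express, 8 of 12 macrophage markers rose (summed 5559 to 17065 in KO and 1319 to 2273 in CON, with C1qa and C1qb). Of 8 pigment cell markers, 6 were tested and 1 rose (summed 11803 to 18385 in KO and 8582 to 11020 in CON, with Pmel and Dct). Rpe65, which marks the pigment epithelium, had 0 reads in all 6 libraries. Best1 on the same list had 8 to 129 reads per library and was below the filter. None of 10 endothelial markers and none of 4 tested mesenchyme and pericyte markers passed, with summed levels of 1156 to 4109 and 865.7 to 2847 in KO and of 2522 to 2867 and 1155 to 2216 in CON (with Cldn5 and Tek, and with Rgs5 and Col1a2). Of 10 retinal neuron markers, with Tubb3 and Snap25, 5 were tested and 1 rose. It was the cone opsin gene Opn1sw, named after its values were seen (290.1 ± 242.8 in KO and 13.7 ± 12.7 in CON). The CON values of Opn1sw alone averaged below the filter, so it was tested only because of its KO values. The 10 retinal neuron markers summed to 1591 to 2302 in KO, 1646 in CON 1, 2115 in CON 2 and 333.3 in CON 3, the library that was also lowest in Sfrp2 and Lef1. The part of any of these cell types in the differences of the WNT genes was not tested.

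**Figure D5:**
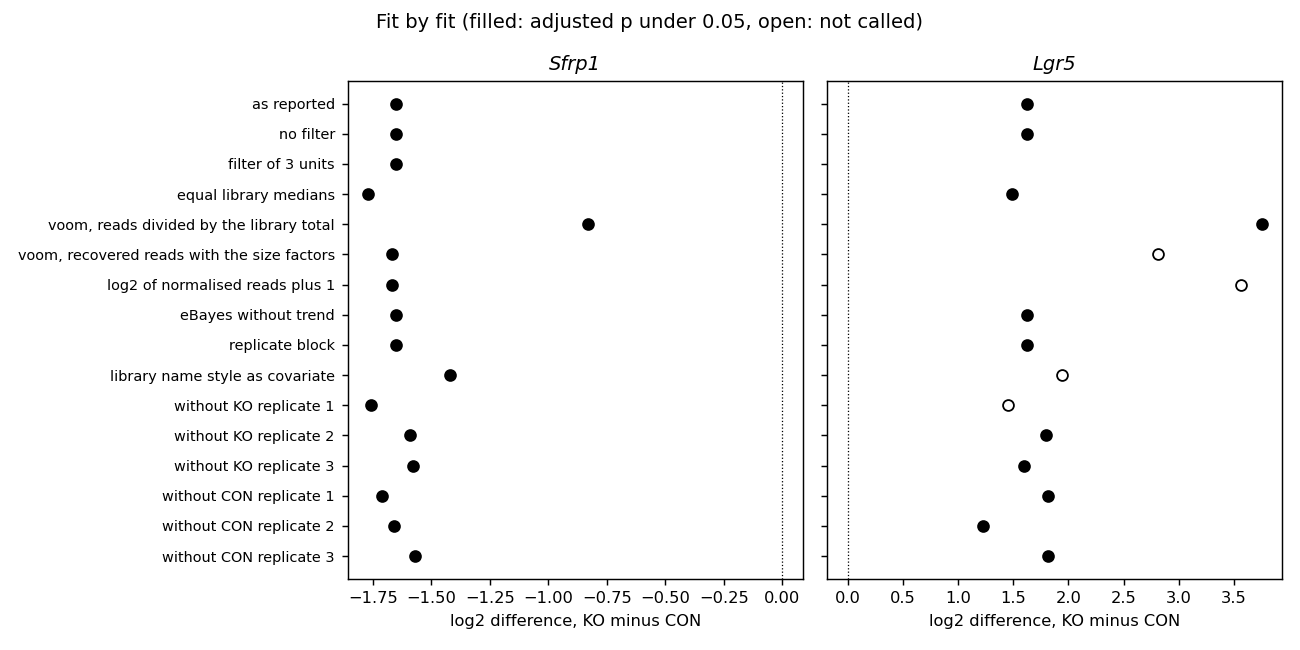
Log2 difference, KO minus CON, of Sfrp1 (left) and Lgr5 (right) in each fit (down the page), filled where the adjusted p was under 0.05. Sfrp1 is filled throughout, from -1.77 to -0.83, and Lgr5 is open in 4 fits, with values from 1.23 to 3.75 over all alternatives.

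Exons of Sfrp2, Axin2 and Lef1 overlap those of a predicted gene on the opposite strand in the GRCm38 annotation (Gm26771, Gm11670 and Gm43352). Whether counting used strand is not given in the sources used here, so reads of these pairs cannot be told apart.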

How the data were processed

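RNA from 6 mouse lens samples was measured by RNA sequencing, with 3 libraries per group. The deposited table holds log2 values that the authors made with DESeq2's variance-stabilising transformation, 1 column per library. Per the submitters' processing notes, the tools were Trimmomatic, HISAT2 2.1.0, featureCounts 1.6.4 and DESeq2 (version listed as 2.11.0.6), with the build mm9. The annotation release is not given in the sources used here.

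The transformation was inverted to reads. Within a tolerance of 0.1 read, 100.0% of values came out whole, and the size factors equalled the median-of-ratios ones. KO was compared with CON by limma 3.58.1 (R 4.3.3, eBayes with trend, no covariate) on the deposited log2 values of 11468 genes whose mean exceeded that of a gene without reads (6.504) by 1 unit or more, with Benjamini-Hochberg adjustment over all of them. The mean for this filter ran over all 6 libraries, so a gene low in 1 group could pass through the other. The fit was also run on simulated data with the same dispersion for every gene, which cannot show how reliable single calls are here. RefSeq and GENCODE vM21 (GRCm38) gave symbols for 25293 identifiers, exon lengths and promoters. The 1886 others stayed in the test.

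The members and gene lists were chosen with earlier results of these data known. The text names all 10 members, Gclc, up to 4 called genes per role and direction, all tested genes of roles with under 4, and the 2 most abundant markers per cell type. Others are said to be named after their values were seen. Foxe3, near 0 in the KO libraries and CON 3 only, Rpe65, 0 in all 6 libraries, and Best1 were also named after their values were seen. The 95% intervals are limma's and rest on the spread between libraries. The limit given for a count of 0 covers counting error only, since reads carry no molecular identifiers.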

Additional observations from a re-analysis of the deposited data

How the results depend on the processing

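The fall of Sfrp1 held its call in the 15 alternative fits, of which the one with the library name style as covariate compares KO 1 alone with CON. The number of the 10 genes called lower was 1 throughout, and the number called higher, 1 as reported, was 0 with a filter of 3 units (which leaves Lgr5 untested), with voom on recovered reads, with log2 of normalised reads plus 1 and with the library name style as covariate, 4 with scaling to library totals, and 0 to 2 with each library left out. Of the other pathway genes, the 5 higher became 1 with a filter of 3 units, 14 with library totals, 3 with voom on recovered reads, 3 with log2 of normalised reads plus 1, 2 with the name style and 3 to 8 with each library left out. The 3 lower became 1 without a filter, 5 with equal library medians, 1 with library totals, 0 with the name style and 1 to 5 with each library left out. Differences whose sign turned were never called: with library totals Sfrp2 (0.99), Wif1 (0.43), Tcf7l2 (0.43) and Znrf3 (0.70), with the name style Sfrp2 (0.29), Dkk3 (-0.06), Tcf7l2 (0.01) and Znrf3 (0.36), and Sfrp2 with voom on recovered reads (0.05) and with log2 of normalised reads plus 1 (0.11). With each library left out they ran from -0.45 to 0.33 for Sfrp2, from -0.02 to 0.31 for Dkk3 and from -0.29 to 0.05 for Znrf3. The causes were not tested. Fits with a library left out have fewer residual degrees of freedom. Over all genes, the 793 higher and 504 lower became 340 higher with a filter of 3 units, 421 higher with voom on recovered reads, 3314 and 85 with library totals, 204 and 39 with the name style, and 357 to 1085 higher with each library left out, with 858 lower without CON 1, 445 without CON 3, 321 without KO 1, 277 without CON 2, 241 without KO 3 and fewer still without KO 2.

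Equal replicate numbers did not pair the libraries (correlations of deviations -0.364, -0.128 and -0.14). With the replicate number as a block, 605 genes were higher and 309 lower, 1 of the 10 genes was higher and 1 lower, and Sfrp1 (-1.65, limma adjusted p = 0.00243) and Lgr5 (1.62, limma adjusted p = 0.00643) were called. CON 2, with 20361430 reads, limits what can be said of Axin2 and Lgr5, for which it held 27 reads and 1 read.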
